A study of Mus musculus with 6 samples.

Results

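The mouse Serpina3 genes are a run of closely related protease inhibitor genes on chromosome 12, and 8 of them were followed here: Serpina3c, Serpina3f, Serpina3g, Serpina3h, Serpina3i, Serpina3k, Serpina3m and Serpina3n. They are 8 of the 26595 genes in the deposited table, found by their symbols. The set was selected on the difference between IL-17 and control libraries that this same table shows, so the members' differences between the groups are given as a description; no p-value is given for a member, and how many passed the threshold of the fit over all genes is stated as a count from which nothing is read. RNA was sequenced from HT22 cells, a permanently growing neuronal line of mouse hippocampal origin, with genotype WT per the labels in both groups. One group was exposed to IL-17, interleukin 17 (n = 3 libraries), and the other was its untreated control (n = 3); the sources used here give neither dose nor time. Nothing in the labels places replicates in separate cultures, so each p-value below covers only differences among these libraries, possibly technical ones.

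Serpins stop proteases with a bait, the reactive centre loop: the protease cuts the loop and is trapped in a covalent complex. The human gene SERPINA3 encodes alpha-1-antichymotrypsin, an acute-phase plasma protein made mainly by the liver, and in the mouse the corresponding locus has been duplicated many times, with loops that differ between the copies. In brain, Serpina3n is best known as a transcript that rises in reactive astrocytes.

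The loops carry the bait for the protease, and they are shown first so that the paralogues can be compared base by base. Each line gives the stretch of the annotated transcript (GENCODE vM21, GRCm38, chromosome 12, coding strand, 5′ to 3′) from the codon that opens the hinge of the loop to the conserved segment after it, found by translating the transcript and searching for that hinge. Capitals mark bases that differ from Serpina3n at the same position, counted from the first base without gaps. Serpina3f and Serpina3k have stretches of 99 and 90 bases, against 96 in the others, and are therefore printed without capitals.
Serpina3n: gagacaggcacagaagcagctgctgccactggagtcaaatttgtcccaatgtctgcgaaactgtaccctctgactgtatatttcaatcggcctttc
Serpina3h: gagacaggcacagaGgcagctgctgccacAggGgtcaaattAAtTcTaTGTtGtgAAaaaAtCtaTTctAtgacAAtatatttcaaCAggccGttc
Serpina3i: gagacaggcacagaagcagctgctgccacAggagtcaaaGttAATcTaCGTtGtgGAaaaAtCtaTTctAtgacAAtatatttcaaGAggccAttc
Serpina3g: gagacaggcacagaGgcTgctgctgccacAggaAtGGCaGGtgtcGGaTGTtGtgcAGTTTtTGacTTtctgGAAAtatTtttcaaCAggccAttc
Serpina3m: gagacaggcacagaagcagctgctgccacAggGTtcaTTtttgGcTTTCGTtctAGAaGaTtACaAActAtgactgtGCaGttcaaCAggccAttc
Serpina3f: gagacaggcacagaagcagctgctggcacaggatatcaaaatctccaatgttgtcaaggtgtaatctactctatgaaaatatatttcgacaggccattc
Serpina3k: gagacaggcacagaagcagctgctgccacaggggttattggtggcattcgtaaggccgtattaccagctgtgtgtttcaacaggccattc

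The first bases encode the hinge by which the 7 stretches were found, so their likeness was in part set by the search. The bases after them, which hold the bait, differed between the paralogues. Serpina3h and Serpina3i differed at 9 of 96 bases. Serpina3g differed from Serpina3n at 32 and Serpina3m from Serpina3n at 28. The hinge search found no such stretch in the annotated Serpina3c transcript. Serpina3h is annotated as a transcribed pseudogene both in GENCODE and in RefSeq, and its stretch comes from a transcript with no annotated coding sequence. Whether its loop is translated was not tested.

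Over whole transcripts the paralogues were 79.4% to 92.6% identical at aligned bases. The closest pair was Serpina3h and Serpina3i at 92.6%, followed by Serpina3g and Serpina3h at 92.4%. Serpina3k and Serpina3m were 91.4% identical, and Serpina3n was at most 86.3% identical to another member, Serpina3h. Of all 75-base windows of Serpina3h transcripts, 11.0% also occurred in a transcript of another gene, most often Serpina3g. The share was 9.7% for Serpina3m, 7.7% for Serpina3g, 7.4% for Serpina3k, 6.6% for Serpina3i, 5.3% for Serpina3f, 1.5% for Serpina3n and 0.3% for Serpina3c. With 150-base windows, the length of 1 read, it was 0.3% for Serpina3k and Serpina3m and 0 for the other 6. Serpina3m also has an annotated transcript that begins at the start of Serpina3k and shares 60 exonic bases with it. How reads that match several paralogues were assigned is not given in the sources used here, so the values of Serpina3f, Serpina3g, Serpina3h and Serpina3i, and those of Serpina3k and Serpina3m, are uncertain to that extent.

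The members lie within 268 kilobases of chromosome 12, from 104146382 to 104414329 (GRCm38). Values are FPKM, fragments per kilobase of transcript scaled to the mapped fragments of the library, and so can be compared between genes. The libraries' FPKM sums ran from 365534 to 383093. Fewer cells that express a gene and less RNA per cell cannot be told apart in such bulk samples. The neuronal markers did not all go with the labelled neuronal line: Rbfox3 and Map2 had mean FPKM of 0.0127 and 0.242 over the 6 libraries, while Tubb3 was at 12.8 and Ncam1 at 3.56. The 9 neuronal markers in the table summed to 15.2 to 16.7 FPKM with IL-17 and 18.4 to 19.6 FPKM in controls. Of 10 astrocyte markers, Gfap and Aqp4 were at 0.0540 and 0.00928 mean FPKM, whereas Glul was at 12.6, Aldoc at 3.71, Gja1 at 2.85 and Sox9 at 1.33. The 10 summed to 21.0 to 24.8 FPKM with IL-17 and 18.7 to 20.4 FPKM in controls, and the groups did not overlap. By limma 0 of the 4 astrocyte markers tested were called, and 3 were higher at an unadjusted p under 0.05. Of 10 macrophage markers, Cd68 was at 253.3, Tyrobp at 66.5, Fcer1g at 21.9 and Csf1r at 20.5 mean FPKM. The others were low: Ptprc was at 0.899, Adgre1 at 0.773, Aif1 at 0.264, Itgam at 0.160, Cx3cr1 at 0.0775 and P2ry12 at 0.0496. The 10 summed to 362.4 to 393.1 FPKM with IL-17 and 353.8 to 356 FPKM in controls, mostly from Cd68. The part of such transcripts in the Serpina3 values was not tested.

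**Figure D1:**
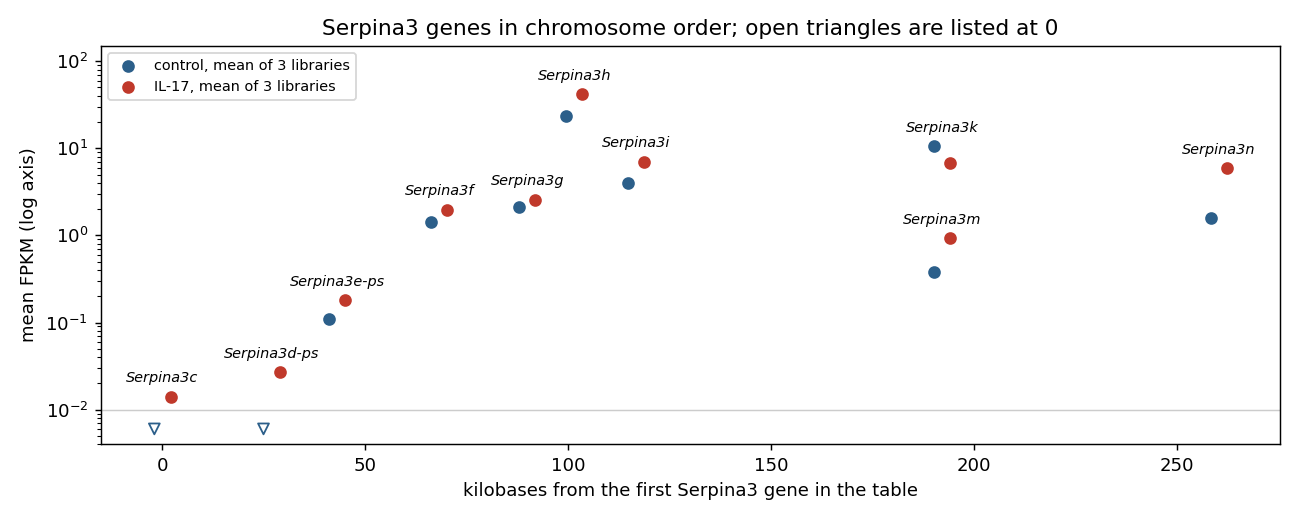
Mean FPKM (log axis) of each Serpina3 gene with a row in the table, placed by its distance in kilobases from the start of Serpina3c; colours give the group, each point is the mean of 3 libraries, and open triangles stand for genes listed at 0 in all libraries of the group. Serpina3h stands highest in both groups, with means of 42.1 FPKM (IL-17) and 23.2 FPKM (control); Serpina3m shares its annotated start with Serpina3k.

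Serpina3h, the transcribed pseudogene, was the most abundant member. Its FPKM was 40.5, 40.4 and 45.3 in IL-17 libraries 1 to 3 and 24.3, 21.6 and 23.8 in control libraries 1 to 3. Every IL-17 value lay far above every control value, and within each group the libraries were close together. The group means were 42.1 ± 2.78 and 23.2 ± 1.46 FPKM (SD, n = 3 each), a ratio of 1.81 and a difference of 0.83 on the log2(FPKM + 1) scale. Serpina3h alone made up 56.6% to 68.8% of the summed FPKM of the 8 members with IL-17 and 52.5% to 55.3% in controls.

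Serpina3n, an inhibitor of granzyme B among other proteases, had the largest ratio between the groups. Its FPKM was 5.06, 4.22 and 8.48 with IL-17 and 1.41, 1.49 and 1.92 in controls. The groups did not overlap, and IL-17 library 3 stood well above the other two. The means were 5.92 ± 2.25 and 1.61 ± 0.276 FPKM, a ratio of 3.68 and a log2 difference of 1.37. The log2 difference was 1.115 without IL-17 library 3 and 1.77 with a pseudocount of 0.1 in place of 1.

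Serpina3i, the neighbour of Serpina3h, was at 5.96, 7.24 and 7.82 FPKM in IL-17 libraries and 3.81, 3.58 and 4.50 FPKM in controls. The groups did not overlap. The means were 7.01 ± 0.953 and 3.96 ± 0.477 FPKM, a ratio of 1.77 and a log2 difference of 0.69. Serpina3i held 14.7% to 17.9% of the FPKM of Serpina3h in IL-17 libraries and 15.7% to 18.9% in controls, so the pair, which is also the closest in sequence, kept similar proportions in both groups.

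Serpina3m was low, at 0.955, 0.731 and 1.10 FPKM in IL-17 libraries and 0.404, 0.376 and 0.370 FPKM in controls. The groups did not overlap, with all controls close together. The means were 0.929 ± 0.186 and 0.383 ± 0.0184 FPKM, a ratio of 2.42 and a log2 difference of 0.475, which became 1.07 with a pseudocount of 0.1. The table holds no counts. If the most common small step in genes with 1 transcript marks 1 fragment, Serpina3m rested on 19.5 to 28.6 fragments per IL-17 library and 10.3 to 11.5 per control library. Serpina3m passed the minimum mean FPKM of 0.5 through its IL-17 values alone.

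Serpina3f was at 2.02, 1.68 and 2.22 FPKM in IL-17 libraries and 1.57, 1.24 and 1.50 FPKM in controls. The groups did not overlap, but IL-17 library 2 and control library 1 were close. The means were 1.97 ± 0.275 and 1.44 ± 0.177 FPKM, a log2 difference of 0.285.

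Serpina3g, known as an intracellular inhibitor of lysosomal cathepsins and a target of NF-kB, was at 2.91, 2.05 and 2.71 FPKM in IL-17 libraries and 2.53, 0.986 and 2.83 FPKM in controls. The groups overlapped, and control library 2 stood apart below the rest. The log2 difference was 0.24 over all libraries and -0.057 without control library 2, so its sign depended on that library.

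Serpina3c was listed at 0 in 5 libraries and at 0.0420 FPKM in IL-17 library 3, about 1.5 fragments under the same estimate. No difference in Serpina3c could be read at this depth.

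**Figure D2:**
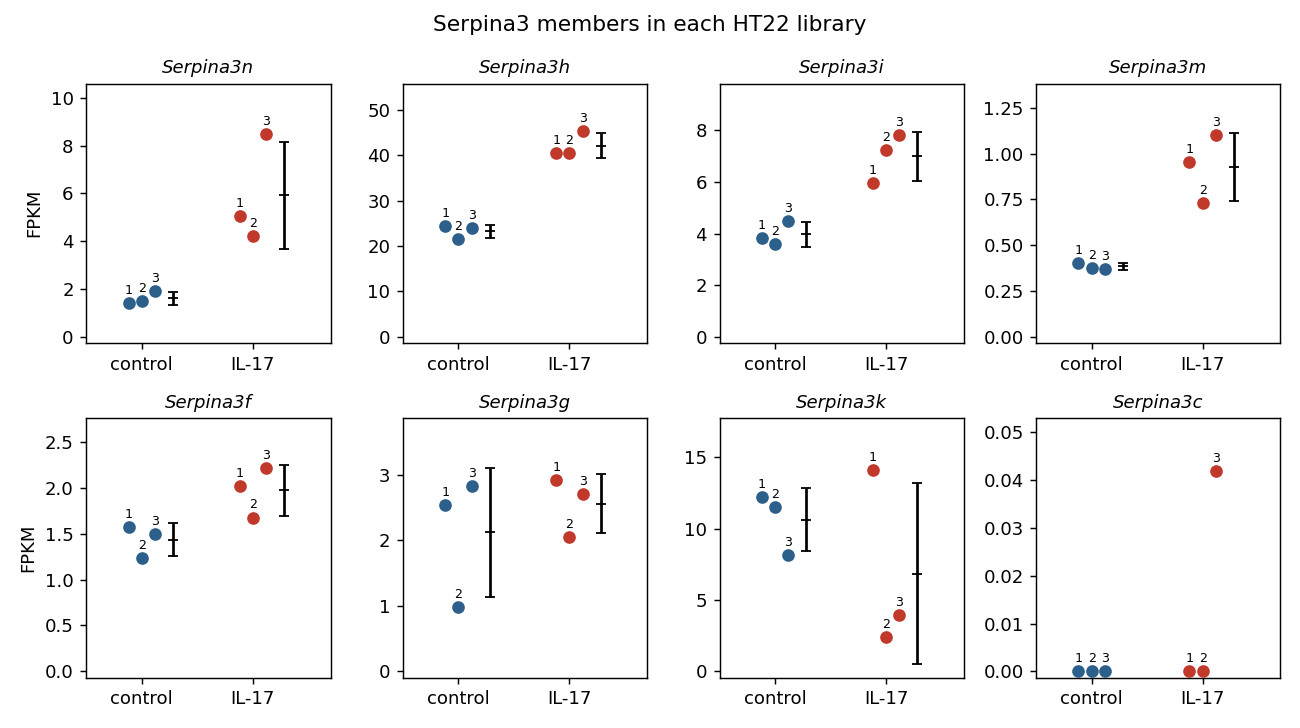
FPKM of each Serpina3 member in every library, 1 panel per gene with its own axis; points are libraries, numbered by replicate, and bars give the mean and SD of 3 libraries (left out for Serpina3c, which is listed at 0 in 5 libraries). Serpina3n, Serpina3h, Serpina3i, Serpina3m and Serpina3f do not overlap between the groups, whereas Serpina3g and Serpina3k do.

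Serpina3k, a liver serpin known to bind tissue kallikrein, followed another pattern. Its FPKM was 14.1, 2.42 and 3.97 with IL-17 and 12.2, 11.5 and 8.15 in controls. IL-17 library 1 was the highest of all 6 and IL-17 library 2 the lowest, so the groups overlapped. The means were 6.83 ± 6.34 and 10.6 ± 2.19 FPKM, a log2 difference of -0.855, which was -1.48 without IL-17 library 1 and -0.408 without IL-17 library 2. Serpina3k also held 19.7%, 4.11% and 5.54% of the summed member FPKM in the IL-17 libraries and 26.4%, 28.3% and 18.9% in the controls.

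Transcripts typical of hepatocytes moved with Serpina3k from library to library. Alb, the albumin gene, was at 51.4, 6.75 and 10.8 FPKM in IL-17 libraries and 47.1, 40.4 and 27.5 FPKM in controls. Serpina3k was between 26.0% and 36.7% of Alb in every library. The 5 Serpina1 genes, alpha-1-antitrypsin paralogues further along the same serpin locus, summed to 32.5, 2.34 and 3.35 FPKM in IL-17 libraries and 25.5, 20.7 and 15.6 FPKM in controls. Against that sum the proportion of Serpina3k was not stable, at 43.3%, 103.5% and 118.4% in IL-17 libraries 1 to 3 and 47.9%, 55.6% and 52.2% in controls. Apoa1, an apolipoprotein of high-density lipoprotein, was at 12.985, 1.88 and 3.06 FPKM with IL-17 against 14.6, 9.93 and 7.13 FPKM in controls, and Hpx, the heme carrier hemopexin, showed the same low IL-17 libraries 2 and 3. Of the 26 liver markers, 23 had a mean of at least 1 FPKM. The 26 summed to 24.2 to 181.1 FPKM in IL-17 libraries and 94.3 to 162.1 FPKM in controls, and Mup3 and Mup20, genes of urinary proteins, were listed at 0 in IL-17 libraries 2 and 3. None of the 23 liver markers tested passed limma after adjustment or at an unadjusted p under 0.05, and all 23 had log2 differences below 0, with a median of -0.814. The part of liver transcripts in the Serpina3k values was not tested.

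Lung transcripts were also uneven and moved in part with Serpina3n. The 10 lung markers summed to 75.2, 64.7 and 168.8 FPKM in IL-17 libraries and 5.73, 5.02 and 57.3 FPKM in controls. Cldn18, Lamp3 and Sftpd were listed at 0 in control libraries 1 and 2. Scgb1a1, whose groups overlapped, made up most of the sum in IL-17 library 3, at 117.6 FPKM, and in control library 3, at 32.15 FPKM. Napsa was nearly level, at 4.39 FPKM with IL-17 and 4.65 FPKM in controls. As for Serpina3n, the highest sum was that of IL-17 library 3 and the highest control sum that of control library 3. Sftpc, a surfactant gene, reached 15.2 FPKM in control library 3, with 0.331 and 0.170 FPKM in controls 1 and 2. Of 7 lung markers tested, 6 were higher at an unadjusted p under 0.05 by limma, and the median log2 difference of the 7 was 1.37. After adjustment 1 was called, Slc34a2, a phosphate transporter gene, which was higher with IL-17 (limma adjusted p = 0.0264, and 0.0559 to 0.0983 without IL-17 library 1, 2 or 3 or control library 1 or 2). The part of lung transcripts in the Serpina3n values was not tested.

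**Figure D3:**
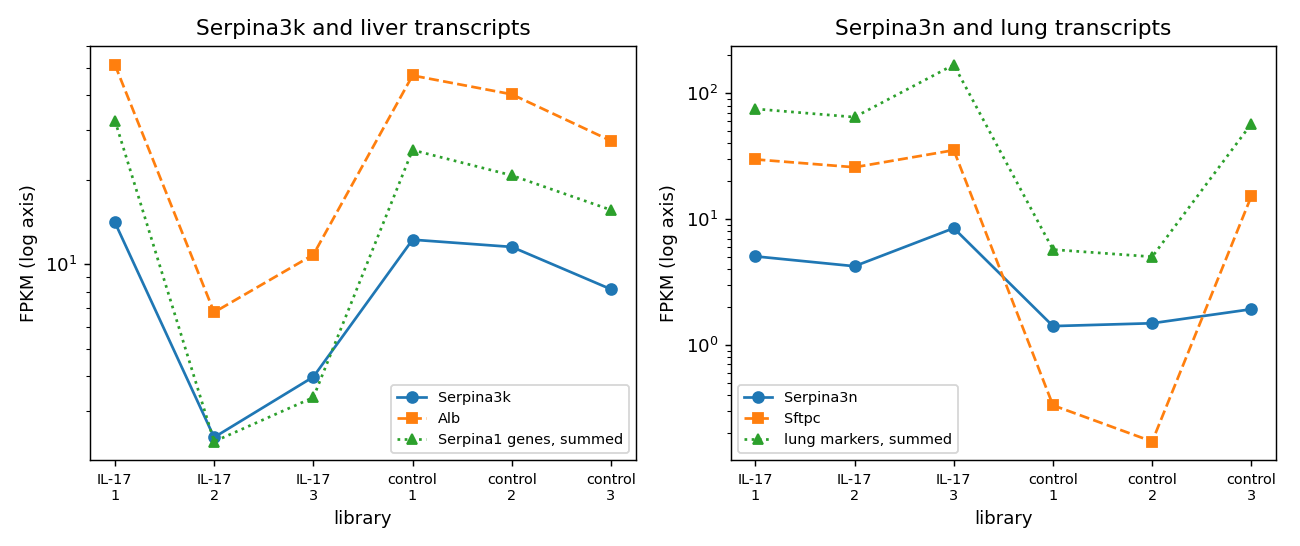
FPKM (log axis) in each of the 6 libraries for Serpina3k with Alb and the summed Serpina1 genes (left) and for Serpina3n with Sftpc and the summed lung markers (right); lines join the libraries only to guide the eye. Serpina3k, at 2.42 to 14.1 FPKM, is lowest in IL-17 libraries 2 and 3, as are Alb and the Serpina1 sum; Serpina3n and both lung measures are highest in IL-17 library 3 and, among controls, in control library 3, at 1.92 FPKM for Serpina3n and 15.2 FPKM for Sftpc.

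In a limma fit across the 12953 genes whose mean was 0.5 FPKM or more, 4 of the 7 members tested were called higher and 0 lower at a Benjamini-Hochberg adjusted p under 0.05: Serpina3h, Serpina3i, Serpina3m and Serpina3n. In that fit 1.95% of genes were called, and 0.95% were called higher. For 5 of the 7, all IL-17 values lay above all control values, which held for 13.3% of tested genes. Since the members were chosen with this contrast in view, and Serpina3m passed the filter through its IL-17 values, these counts describe the members and support nothing. Of the 4, Serpina3h alone was called under every alternative. The number called higher was 1 with no filter, and 3 with quantile normalization, with TPM scaling or with a minimum mean of 1 FPKM, where Serpina3m was not called or not tested. It was 3 without IL-17 library 1 or 2, 2 without IL-17 library 3, 1 without control 1 or 2, and 2 without control 3. Serpina3k was called lower when IL-17 library 1 was left out. With IL-17 library 1 and control library 3 both left out, Serpina3h and Serpina3i were called higher and Serpina3k lower, and Serpina3n was not called. Serpina3n was also not called with no filter or without control library 1, 2 or 3.

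The order of the levels differed between the groups mainly through Serpina3n and Serpina3k. In controls Serpina3h was followed by Serpina3k, Serpina3i, Serpina3g, Serpina3n, Serpina3f and Serpina3m. There the ranges of Serpina3g, Serpina3n and Serpina3f all overlapped each other. With IL-17 the order was Serpina3h, Serpina3i, Serpina3k, Serpina3n, Serpina3g, Serpina3f and Serpina3m. In that group the ranges of Serpina3i, Serpina3k and Serpina3n overlapped, and the range of Serpina3g overlapped those of Serpina3k and Serpina3f. The 8 members together summed to 71.5, 58.8 and 71.6 FPKM in IL-17 libraries and 46.3, 40.8 and 43.1 FPKM in controls. Without Serpina3k the sums were 57.4, 56.4 and 67.7 FPKM against 34.0, 29.2 and 35.0 FPKM.

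Among themselves the members fell into unlike profiles over the 6 libraries. The distance used is the root mean square difference between log2(FPKM + 1) profiles, each centred on its own mean. It was 0.110 between Serpina3f and Serpina3m and 0.121 between Serpina3h and Serpina3i, the smallest of the 21 pairs. The scale compresses low genes such as Serpina3m, so the first of these distances depends on the pseudocount of 1. With it the log2 differences of Serpina3f and Serpina3m were 0.285 and 0.475, and with a pseudocount of 0.1 they were 0.43 and 1.074. Serpina3k was at least 0.860 from every other member measured. The 3 genes outside the family closest to Serpina3h were Mt2, a metallothionein, at 0.0551, Rgs16, a regulator of G protein signalling, at 0.0696, and Urah at 0.0718. Those closest to Serpina3n were Mgp, a matrix protein, at 0.156, the cytokine gene Il19 at 0.171 and Chil3, a chitinase-like protein gene, at 0.249. For Serpina3i they were Epas1, Bnip3 and Aqp1, at 0.0875 to 0.0966, and for Serpina3m the gene model Gm2446, Medag and Idi1, at 0.0453 to 0.0647. Serpina3f was closest to Gm11687, Uba3 and Gm18860, at 0.0376 to 0.0495. Serpina3g was closest to Rundc3a, Gm14418 and Rsph3b, at 0.0683 to 0.144, which were likewise lowest in control library 2. The 3 closest to Serpina3k were Apoe, an apolipoprotein gene, at 0.0593, Serpina1d at 0.0940 and Gc, a plasma vitamin D carrier, at 0.113. Apoe was at 29.2, 5.47 and 8.65 FPKM in IL-17 libraries and 22.9, 23.7 and 15.4 FPKM in controls, with IL-17 libraries 2 and 3 lowest, as for Serpina3k.

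Other genes of the Serpina3 run had rows in the table at low values. The pseudogene Serpina3e-ps was at 0, 0.362 and 0.180 FPKM in IL-17 libraries and 0.0436, 0.167 and 0.114 FPKM in controls. Serpina3d-ps was listed at 0 in all libraries except IL-17 library 3, where it was at 0.0803 FPKM.

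Promoter windows from RefSeq (GRCm38.p6), 250 bases before to 50 after the annotated start, were given for 5 of the 8 members. Serpina3h, Serpina3k and Serpina3m had none. The windows are described here because IL-17, IL-6 and interferons are known to act on this family through NF-kB, C/EBP and STAT factors. Whether a motif has a part in the level of any member was not tested. The windows of Serpina3g and Serpina3i are printed, 5′ to 3′ on the plus strand, because they carry the same pair of motifs. Capitals mark a match to the NF-kB consensus and, after it, a match to the STAT motif TTCNNNGAA.
Serpina3g, chr12:104235897-104236196: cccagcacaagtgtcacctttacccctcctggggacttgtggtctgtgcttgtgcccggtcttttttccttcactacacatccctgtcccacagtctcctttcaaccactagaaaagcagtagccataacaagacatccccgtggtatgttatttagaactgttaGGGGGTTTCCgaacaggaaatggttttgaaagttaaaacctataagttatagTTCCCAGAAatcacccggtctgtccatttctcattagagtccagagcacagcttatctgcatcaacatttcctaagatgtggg
Serpina3i, chr12:104262872-104263171: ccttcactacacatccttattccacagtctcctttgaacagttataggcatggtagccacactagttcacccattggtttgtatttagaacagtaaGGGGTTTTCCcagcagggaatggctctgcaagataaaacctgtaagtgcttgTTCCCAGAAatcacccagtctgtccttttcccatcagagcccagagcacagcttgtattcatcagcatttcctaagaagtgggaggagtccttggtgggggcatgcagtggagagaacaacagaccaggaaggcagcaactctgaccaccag

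Relative to the start site, the NF-kB match GGGGGTTTCC of Serpina3g began at base -85 and the STAT match TTCCCAGAA at base -33. In Serpina3i the corresponding matches, GGGGTTTTCC and TTCCCAGAA, began at bases -154 and -102. Both strands were searched. Over all 32851 promoter windows, 8.5% held the NF-kB consensus and 8.3% the STAT motif. The 2 overlapping windows of Serpina3f held the STAT motif, which overlapped the interferon response core GAAANNGAA on the other strand, and 2 matches each to the C/EBP motif TTGCNNAA. Of all windows, 8.6% held GAAANNGAA and 10.8% TTGCNNAA. None of these 4 motifs was found in the windows of Serpina3n and Serpina3c. The IL-17 and control values did not overlap for Serpina3n, without a match, or for Serpina3i and Serpina3f, with matches. They overlapped for Serpina3g, with matches. A match is a description of letters, and its absence says only that these letters are not in this window.

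Serpins outside the family did not pass. Of 39 other serpin genes in the table, 16 were tested and 0 were called by limma, against 1.95% of all genes tested. For a list this short, 0 calls is near that share. Their median log2 difference was -0.001, where that of all tested genes was 0.016. Of the 16, 1 had an unadjusted p under 0.05. Serpinf1, an antiangiogenic secreted serpin and the most abundant one outside the family, was at 107.7 ± 4.56 FPKM in IL-17 libraries and 112.1 ± 3.63 FPKM in controls (SD, n = 3 each), and the intracellular Serpinb6a at 24.6 ± 4.15 and 21.1 ± 3.31 FPKM in the same order. Without IL-17 library 1, the 5 Serpina1 genes were called lower, with log2 differences from -2.03 for Serpina1e to -1.39 for Serpina1b.

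Target proteases, here a list of proteases that such serpins are known to inhibit and of other proteases, did not pass either. Of 22 listed, 12 were tested and 0 were called by limma, against 1.95% of all genes tested, and 3 had an unadjusted p under 0.05. With so few genes, 0 calls is near that share. The median log2 difference was 0.05. The most abundant were the lysosomal cathepsins Ctsd, at 549.8 ± 15.7 FPKM in IL-17 libraries and 500.2 ± 4.34 FPKM in controls, and Ctsk, at 409.2 ± 56.7 and 366.9 ± 46.03 FPKM. Gzmb, the granzyme B gene, is outside the naming rule and was picked with its values known. The IL-17 libraries held 29.8, 25.5 and 30.9 FPKM of Gzmb and the controls 18.04, 17.1 and 23.9 FPKM. The groups of Gzmb did not overlap, and its limma adjusted p was 0.0961 over all libraries and 0.0342 without control library 3.

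Among 28 regulators known to act on Serpina3 genes, all of which were tested, 5 rose, 2 fell and 21 did not pass, with a median log2 difference of 0.037. Of all genes tested, 1.95% were called and 0.95% were called higher. This list and those below were chosen with earlier results of these data known, so their counts are a description. Nfkbiz, an NF-kB cofactor, rose from 9.73 ± 0.297 to 18.1 ± 0.191 FPKM, a log2 difference of 0.835 (SE 0.049; limma adjusted p = 0.00034). Il6 rose by 2.06 (SE 0.062) on the log2 scale and Socs3, the feedback inhibitor of IL-6 receptor signalling, by 0.918 (SE 0.068). Leaving out control 1 or control 2 reduced the 7 calls to 4.

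Of 32 acute-phase genes other than serpins, 28 were tested, of which 7 rose, 0 fell and 21 did not pass, with a median log2 difference of 0.15. Saa3, a serum amyloid A gene expressed outside the liver, rose from 899.2 ± 66.1 to 1799 ± 129.1 FPKM. Mt2, the gene closest in profile to Serpina3h, rose from 606.5 ± 18.6 to 1026 ± 75.9 FPKM, and Mt1 from 250.6 ± 1.64 to 382.1 ± 25.6 FPKM. Lcn2, an iron-binding protein gene, had a log2 difference of 1.601 (SE 0.053). The limma adjusted p of Saa3 was 0.00114, that of Mt2 0.00198 and that of Mt1 0.00297. This list shares 4 genes with the liver markers, Fga, Fgb, Fgg and Hpx, which were uneven between libraries as above; Fgg was called lower, by -1.125 on the log2 scale, when IL-17 library 1 was left out.

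Genes that rise with Serpina3n in reactive astrocytes moved in both directions. Of 35 listed, 28 were tested: 6 rose, 4 fell and 18 did not pass, with a median log2 difference of 0.169. Timp1, an inhibitor of matrix metalloproteinases, rose from 110.5 ± 1.32 to 156.4 ± 9.26 FPKM (limma adjusted p = 0.00549), and Ptgs2, the inducible cyclooxygenase, from 7.65 ± 0.905 to 19.4 ± 0.644 FPKM (limma adjusted p = 0.000548). Lcn2 belongs to this list too. Cxcl10, a chemokine of the interferon response, fell by 1.34 on the log2 scale. Leaving out IL-17 library 2 or control 2 reduced the 10 calls to 6, and leaving out control 3 reduced them to 5.

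Of 28 genes induced by interferon gamma, 24 were tested, of which 16 fell, 0 rose and 8 did not pass, with a median log2 difference of -0.456. Psmb10, an immunoproteasome subunit, fell from 74.9 ± 0.962 to 45.4 ± 0.630 FPKM (limma adjusted p = 0.000414), and Gbp3, an interferon-inducible GTPase, from 19.8 ± 0.489 to 12.4 ± 0.483 FPKM (limma adjusted p = 0.00155). Cxcl10 is on this list as well. Leaving out control 3 reduced the 16 calls to 9. None of the 7 members tested was called lower in the same fit, where 129 of all 12953 genes tested were. For so few genes, 0 calls is near that share, and nothing is read from it. Serpina3k had the lowest log2 difference of the members tested, -0.855, and was called lower, at -1.48, without IL-17 library 1. Serpina3g and Serpina3f, the tested members with the smallest differences, had log2 differences of 0.24 and 0.285. That of Serpina3g was -0.057 without control library 2.

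**Figure D4:**
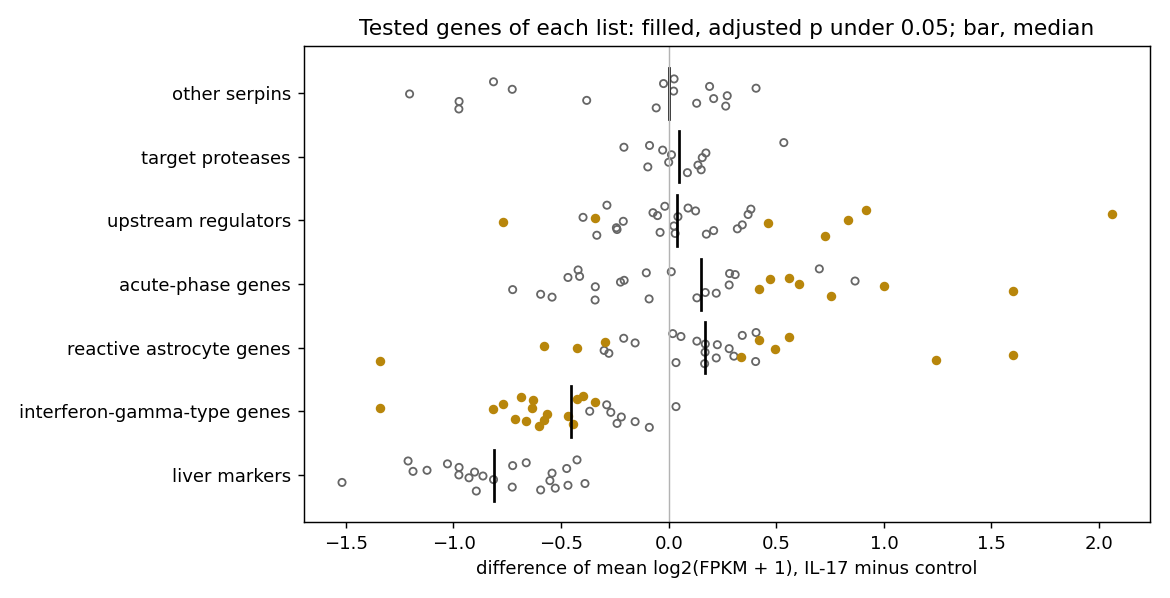
Difference of mean log2(FPKM + 1), IL-17 minus control, for each tested gene of 7 lists; filled points have a limma adjusted p under 0.05 and black bars are list medians. Interferon-gamma-type genes have a median of -0.456 and liver markers of -0.814, whereas the medians of other serpins and target proteases are near 0, at -0.001 and 0.05.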

How the data were processed

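Poly(A) RNA of 6 HT22 libraries was sequenced as paired ends, per the labels' protocols. The authors deposited 1 table of FPKM values with 1 column per library. The submitters' processing notes name fastp, StringTie, edgeR and mm10, without versions. The aligner, the annotation and the use of strand in counting are not given in the sources used here, and 0 columns of values were left out. Depth is not stated.

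Symbols and coordinates came from GENCODE vM21 (GRCm38, also called mm10), which matched 26525 identifiers and not 70. FPKM were used as deposited, as log2(FPKM + 1), a scale that understates changes of low genes. Genes whose mean was 0.5 FPKM or more were fitted together with limma 3.58.1 in R 4.3.3 (trend, group as sole term, Benjamini-Hochberg adjustment, threshold 0.05). The procedure was tested on simulated data. Members and lists were chosen with earlier results of these data known. Named genes are the members, other genes of the run, and per list up to 4 called genes of smallest p, or those of highest level where none was called; for other serpins, the 3 of highest level; for profiles, the 3 closest genes. Some genes within the rule are not reported here. Replicate numbers were not treated as pairs.

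Alternatives were another pseudocount, other filters, TMM-type scaling (an unweighted trimmed mean), quantile normalization, TPM scaling, a robust prior, the replicate number as a block, and leaving out libraries.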

Additional observations from a re-analysis of the deposited data

How the results depend on the processing

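Of 120 member log2 differences under the alternatives, 113 were within 1 SD of the reported value and 7 moved by more. None that was called changed sign. Filters, the replicate block and the robust prior cannot change these differences, so agreement there was fixed in advance. The SD is the member's own spread within groups. Serpina3k therefore counted as within it at -1.644 without both IL-17 library 1 and control 3, against -0.855. Serpina3g did so at -0.057 without control 2, against 0.24. The 252 genes called became 135 with no filter, 160 without both IL-17 library 1 and control 3, and 117 to 254 when 1 library was left out. With no filter, 4 upstream regulators and 6 reactive astrocyte genes were called. With IL-17 library 1 and control 3 both out, the calls were 5 for other serpins (the Serpina1 genes, lower), 5 for reactive astrocyte genes and 9 for interferon-gamma-type genes. Leaving out 1 library gave 0 to 5 calls for other serpins, 4 to 8 for upstream regulators, 0 to 1 for target proteases, 5 to 8 for reactive astrocyte genes and 9 to 15 for interferon-gamma-type genes. With the replicate number as a block (replicate block), 80 genes were called, among them 4 upstream regulators, 4 acute-phase genes, 4 reactive astrocyte genes and 8 interferon-gamma-type genes, and Serpina3m was no longer called. Deviations of same-numbered libraries from their group means had correlations of -0.144, 0.08 and 0.206. By these deviations 2 IL-17 libraries correlated best with the control of their own number, and 1 control with the IL-17 library of its number. With 3 libraries per group this cannot settle whether they were paired. The labels state no pairs, and the numbers were not taken as pairs. Why these counts change with the settings was not tested. Low members such as Serpina3c and Serpina3m are limited by depth, which is not stated.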
